A study of Mus musculus with 16 samples.

Results

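The genes described here are 10 enzymes of ganglioside synthesis, *Ugcg*, *St3gal5*, *St8sia1*, *St8sia3*, *St8sia5*, *B4galnt1*, *B3galt4*, *St3gal2*, *St6galnac5* and *St6galnac6*. They were taken by symbol from the 37583 genes of the deposited tables, and all 10 had enough reads to be tested in every comparison. The study sequenced RNA of cortex and cerebellum from 8 C57BL/6J mice, 4 of them wild-type and 4 with the *Slc39a8* A391T mutation, which the labels also write as A393T. This gave 4 groups of 4 libraries, with 1 library for each region of each mouse. The study used both sexes, and its methods give male mice for the RNA sequencing and cortex and cerebellum of the same adult animals. The sex and age of the A391T mice, and whether they carried 1 or 2 mutant copies, are not given in the sources used here. Mice are numbered 1 to 4 within a genotype.

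Gangliosides are glycolipids that carry sialic acid and are abundant on the surface of neurons. Their synthesis in the Golgi begins with glucose and then galactose on ceramide, continues with successive sialic acids that open the a-, b- and c-series, and ends with shared enzymes that lengthen the chain of every series. The share of the series therefore depends in part on enzymes that compete for the same early lipids, and the brain is the tissue in which the complex forms with several sialic acids are best known.

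The 16 libraries held from 20813432 to 30497206 counts on genes. Levels are given as TPM, a count per unit of gene length scaled so that each library sums to 1000000, and differences as log2 fold changes from edgeR after TMM scaling, which centres the genes as a whole near 0 and so can differ a little from a ratio of TPM values. The labelled regions carried their markers, since the summed level of 5 cerebellar granule cell genes was between 36.6 and 52.2 TPM in cortex and between 2115 and 2780 TPM in cerebellum. The summed level of 5 genes of the choroid plexus, tissue that lies against the cerebellum, was 42.9 TPM in wild-type cerebellum of mouse 3 and 41.7 TPM in A391T cerebellum of mouse 4, against 2393 to 8098 TPM in the other cerebellum libraries. Cerebellum of A391T mouse 1 lay apart from its group over all genes, by a mean chi-square of counts per gene between 2 libraries. It was 62.7 to 74.9 against the rest of its group, 7.26 to 8.17 among those, and at most 34.6 in the other groups. The deposited RPKM table names another mouse than the count files do for 8 of its 16 columns. Groups follow the count files here, and the other naming was run as an alternative whose values are given beside a number of the results. *Slc39a8* itself was between 1.63 and 3.16 TPM in all libraries, a level that does not check a point mutation.

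The promoter windows of 5 of the 10 genes, *Ugcg*, *St3gal5*, *St8sia1*, *B3galt4* and *St6galnac6*, were found in the RefSeq table of the GRCm38.p6 build, 250 bases before to 50 bases after the gene start. Of these, *St8sia1* and *St3gal5* are printed because they encode the enzymes of consecutive steps at the branch between the a- and b-series. A further reason is that *St8sia1* differed more than 2-fold between the regions in wild-type mice with all libraries, while *St3gal5* was among the highest in both regions. Capitals mark the GC box, the letters GGGCGG or their reverse complement CCGCCC.
*St8sia1*, chr6:142964403-142964702, minus strand: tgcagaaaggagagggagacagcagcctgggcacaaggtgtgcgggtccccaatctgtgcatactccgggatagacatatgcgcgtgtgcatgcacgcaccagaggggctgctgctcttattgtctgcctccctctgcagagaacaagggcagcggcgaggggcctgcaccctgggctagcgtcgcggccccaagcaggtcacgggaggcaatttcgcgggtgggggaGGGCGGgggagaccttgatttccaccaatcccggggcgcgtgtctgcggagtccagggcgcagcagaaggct
*St3gal5*, chr6:72097358-72097657, plus strand: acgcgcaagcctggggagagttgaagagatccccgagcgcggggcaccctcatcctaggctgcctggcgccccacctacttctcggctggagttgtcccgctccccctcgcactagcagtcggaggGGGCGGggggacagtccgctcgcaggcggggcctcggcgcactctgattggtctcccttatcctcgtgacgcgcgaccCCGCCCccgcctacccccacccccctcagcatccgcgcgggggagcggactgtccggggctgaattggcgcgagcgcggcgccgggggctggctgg
The GC box was present in the windows of 4 of the 5 genes, all but *St6galnac6*, and in 35.7% of the 32851 windows of the table. The CCAAT box, searched as CCAAT or ATTGG, was present in 2 of the 5, *St3gal5* and *St8sia1*, and in 37.4% of all windows. Neither the TATA box, searched as TATAAA or TTTATA, nor the E-box CACGTG, which reads the same on both strands, was found in any of the 5, against 13.6% and 7.15% of all windows. No match of one motif overlapped a match of another in these windows. The number of CpG pairs was 19 in *St8sia1*, 33 in *St3gal5*, 53 in *Ugcg*, 20 in *B3galt4* and 2 in *St6galnac6*, with a median of 7 over all windows.

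The study profiled N- and O-glycans of proteins in both regions and reports no ganglioside levels. The comparison of cerebellum with cortex here asks only which of these genes differ between the regions in RNA. *St8sia5* and *St8sia1*, which extend chains of sialic acid, rose in wild-type mice by 2.69-fold and 2.10-fold in cerebellum, and *St6galnac5*, which places sialic acid on the GalNAc residue, fell 15.6-fold. *B4galnt1* and *St8sia3* fell by less than 2-fold, and *St3gal2* rose 1.43-fold. Past an adjusted p-value of 0.05 and a 2-fold change together were 3 of the 10 genes, 2 higher and 1 lower in cerebellum, where 24.7% of the 16040 genes tested passed both criteria, 10.5% higher and 14.2% lower. Past the adjusted p-value alone were 9 of 10, 3 higher and 6 lower, against 67.8% of all genes tested, 34.7% higher and 33.1% lower. The median log2 fold change of the 10 genes was -0.24 in wild-type mice, with a median size of 0.69, against 0.02 and 0.46 over all genes tested. The plot of levels by library shows the 16 values of each gene.

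**Figure D1:**
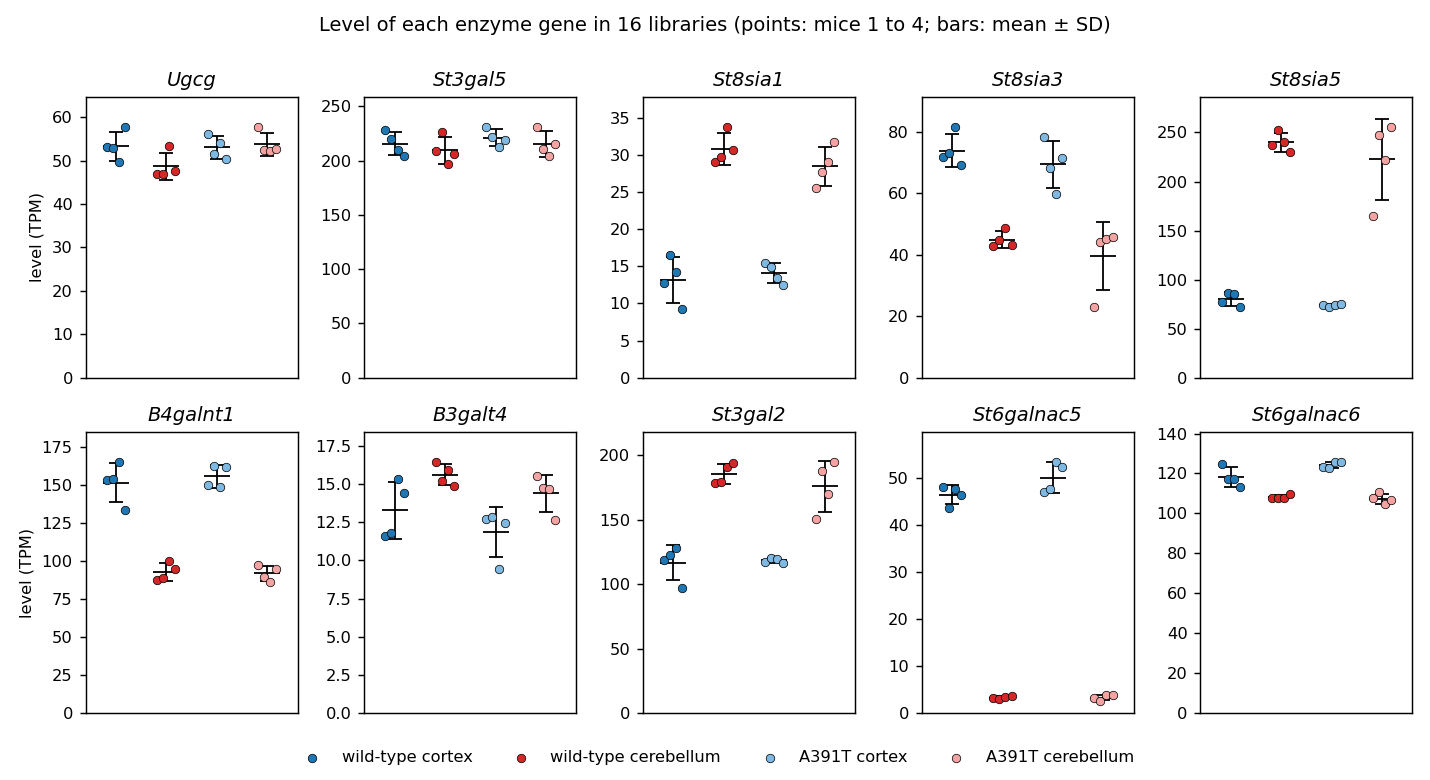
Level of each of the 10 genes in TPM (vertical axes, starting at 0), with 1 point per library ordered by mouse 1 to 4 within each group and bars for the mean ± SD of 4 libraries. *St6galnac5* lies between 43.7 and 53.4 TPM in the 8 cortex libraries and between 2.5 and 3.81 TPM in the 8 cerebellum libraries.

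The first steps of the pathway differed little between the regions. *Ugcg* (ENSMUSG00000028381) encodes glucosylceramide synthase, which places glucose on ceramide, and lies on chromosome 4 from 59202129 to 59235705 of the NCBIM37 (mm9) build, plus strand. Its level in wild-type mice 1 to 4 was 53.0, 52.8, 49.7 and 57.8 TPM in cortex and 46.9, 46.9, 53.3 and 47.5 TPM in cerebellum. The ranges overlapped through cerebellum of mouse 3, the highest of its group and the wild-type cerebellum library with the lowest choroid plexus level, whose part in the value was not tested. The log2 fold change of -0.29 (standard error, SE, 0.07) passed at an edgeR adjusted p of 0.0031. In A391T mice the levels of *Ugcg* were 56.1, 51.6, 54.1 and 50.4 TPM in cortex and 57.7, 52.3, 52.3 and 52.7 TPM in cerebellum, which overlapped, with a log2 fold change of -0.08 (SE 0.08, edgeR adjusted p = 0.42) that turned to 0.053 with library totals in place of TMM factors. The values of *Ugcg* under the names of the RPKM table were -0.19 in wild-type and -0.16 in A391T mice.

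*St3gal5* (ENSMUSG00000056091) encodes GM3 synthase, which makes the first ganglioside and the common precursor of the a-, b- and c-series, and lies on chromosome 6 from 72047607 to 72104564, plus strand. It was the highest of the 10 genes in cortex, with 228, 220.1, 210.1 and 204 TPM in wild-type mice 1 to 4. Cerebellum of the same mice had 208, 227, 197 and 206 TPM, and the ranges of the regions overlapped. The log2 fold change in wild-type mice was -0.19 (95% interval -0.34 to -0.04, edgeR adjusted p = 0.027), and in A391T mice -0.14 (95% interval -0.31 to 0.04, edgeR adjusted p = 0.15). The A391T value moved to -0.0065 with library totals in place of TMM factors. With library totals the median of all genes shifted from 0.02 to 0.14 in wild-type mice and from 0.03 to 0.16 in A391T mice, and the wild-type values of *St3gal5* and *Ugcg*, -0.07 and -0.17, no longer passed. Nor did *St3gal5* pass the adjusted p-value when cortex of wild-type mouse 1 or 2 or cerebellum of wild-type mouse 1 or 4 was left out, over a range of -0.23 to -0.16 for all 8 libraries left out in turn.

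Of the 3 *St8sia* genes, which add sialic acid to sialic acid, *St8sia1* and *St8sia5* rose in cerebellum and *St8sia3* fell. *St8sia1* (ENSMUSG00000030283) encodes GD3 synthase, which opens the b-series, and lies on chromosome 6 from 142770065 to 142912972, minus strand, with 1.62% of its exon bases shared with *Gm7457* on the opposite strand. Its level was 12.8, 16.5, 14.2 and 9.18 TPM in wild-type cortex and 29.0, 29.7, 33.8 and 30.6 TPM in wild-type cerebellum. Every cerebellum library lay above every cortex library, and cortex of mouse 4 was the lowest. The log2 fold change was 1.07 (SE 0.14, edgeR adjusted p = 3.2e-05). Without cortex of wild-type mouse 4 it was 0.93, under 2-fold, and a test against a 2-fold change gave an edgeR adjusted p of 0.55 with all libraries. That library also had the lowest cortical excitatory neuron marker sum of wild-type cortex, 3997 TPM against 4838 to 5097, and the highest endothelial and blood sums, 320.3 and 440.2 TPM, and the part of these in the value was not tested. In A391T mice *St8sia1* rose in cerebellum from 15.5, 14.8, 13.4 and 12.5 TPM to 25.5, 27.6, 29.0 and 31.7 TPM, again with no overlap. The log2 fold change there, 0.91 (SE 0.08, edgeR adjusted p = 5.1e-06), was under 2-fold, and it was 1.05 with library totals. Under the names of the RPKM table *St8sia1* was at 1.20 in wild-type and 0.80 in A391T mice.

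*St8sia5* (ENSMUSG00000025425) encodes the sialyltransferase that adds a further sialic acid to make GT3 and the most sialylated complex gangliosides. It lies on chromosome 18, and 18% of its exon bases are shared with *Gm7276* on the opposite strand. In counts made without strand, a read that falls on both genes belongs to no single gene and was left out. Wild-type cortex had 76.7, 86.5, 85.8 and 72.4 TPM and wild-type cerebellum 237, 252, 240.4 and 229.8 TPM. The regions lay far apart in all 4 mice, with a log2 fold change of 1.43 (SE 0.07, edgeR adjusted p = 8.5e-09). In A391T mice the level was 74.1, 72.2, 74.2 and 74.9 TPM in cortex and 165, 248, 222 and 256 TPM in cerebellum, with a log2 fold change of 1.48 (SE 0.10, edgeR adjusted p = 8.4e-07). Cerebellum of A391T mouse 1 was the lowest of its group, still above every cortex library.

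*St8sia3* (ENSMUSG00000056812), also on chromosome 18, encodes a related enzyme that acts on glycoproteins as well as glycolipids, and it moved the other way. Its level fell from 71.9, 72.9, 81.6 and 69.0 TPM in wild-type cortex to 42.7, 44.7, 48.7 and 43.1 TPM in wild-type cerebellum. The ranges did not overlap, and the log2 fold change of -0.87 (SE 0.06, edgeR adjusted p = 3.2e-07) was under 2-fold. A391T cortex had 78.1, 68.3, 59.7 and 71.3 TPM and A391T cerebellum 23.0, 44.1, 45.0 and 45.9 TPM. Cerebellum of mouse 1 lay far below the other 3, no A391T library of one region overlapped the other region, and the log2 fold change was -0.93 (SE 0.18, edgeR adjusted p = 0.0011) with it and -0.76 (SE 0.08) without it. Cerebellum of A391T mouse 1 also had the lowest granule cell marker sum, 2115 TPM against 2491 to 2780 in the other A391T cerebellum libraries, with all 5 markers above 1 TPM, and the highest blood and endothelial sums, 593 and 306 TPM, and their part in its values was not tested. Under the names of the RPKM table *St8sia3* passed both criteria in A391T mice, at -1.03, and in wild-type mice was at -0.78. It also passed both, at -1.01, when cortex of A391T mouse 3 was left out. That library had the lowest striatal marker sum of A391T cortex, 107 TPM, whose part in the value was not tested. Of its exon bases, 9.41% are shared with *1700091E21Rik* on the opposite strand.

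The 2 enzymes that lengthen the chain of all series did not move together. *B4galnt1* (ENSMUSG00000006731) encodes GM2/GD2 synthase, which adds GalNAc, and lies on chromosome 10 from 126602247 to 126609385, plus strand, with 29.4% of its exon bases shared with *Slc26a10* on the opposite strand. Its level was 154, 154, 165 and 134 TPM in wild-type cortex and 87.5, 88.5, 99.8 and 95.1 TPM in wild-type cerebellum. All cerebellum libraries lay below all cortex libraries, with a log2 fold change of -0.86 (SE 0.07, edgeR adjusted p = 6.0e-07). In A391T mice it was also -0.86 (SE 0.08, edgeR adjusted p = 7.4e-06), from 149.8, 163, 149 and 162 TPM in cortex to 97.2, 89.4, 86.3 and 95.04 TPM in cerebellum.

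*B3galt4* (ENSMUSG00000067370) encodes GM1/GD1b synthase, which adds the terminal galactose, and is a gene of 1 exon on chromosome 17 from 34086859 to 34088433, minus strand. Its level was 11.6, 11.8, 15.3 and 14.4 TPM in wild-type cortex and 16.4, 15.2, 15.9 and 14.9 TPM in wild-type cerebellum. The ranges overlapped, and *B3galt4* was the only gene of the 10 with no adjusted p-value under 0.05 in wild-type mice, at a log2 fold change of 0.09 (95% interval -0.17 to 0.35, edgeR adjusted p = 0.52). This value was 0.02 under the names of the RPKM table, 0.21 with library totals and 0.03 to 0.15 with 1 library left out. It passed in none of these. A391T mice had 12.7, 12.8, 9.43 and 12.5 TPM in cortex and 15.5, 14.7, 14.6 and 12.7 TPM in cerebellum, which overlapped, with a log2 fold change of 0.18 (95% interval -0.13 to 0.49, edgeR adjusted p = 0.28). Under the names of the RPKM table it was 0.24 there, at an edgeR adjusted p of 0.045. The levels under these names were from 11.6 to 12.8 TPM in cortex and from 14.7 to 16.4 TPM in cerebellum. This call did not hold under the same names once the regions of each mouse were paired in the model. That pairing under these names was chosen after seeing the data.

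The genes for the outer sialyltransferases differed in direction and size. *St3gal2* (ENSMUSG00000031749) encodes the enzyme that sialylates the terminal galactose to give GD1a and GT1b, and lies on chromosome 8 from 113443822 to 113496380, plus strand. The paper also gives *St3gal2* and *St6galnac6* a part in making the main disialylated O-GalNAc glycan of brain proteins, so their levels are not specific to gangliosides. Wild-type cortex had 119, 123, 128 and 96.9 TPM and wild-type cerebellum 178, 179, 191 and 194 TPM, with no overlap and a log2 fold change of 0.52 (SE 0.08, edgeR adjusted p = 1.1e-04). In A391T mice the levels of *St3gal2* rose from 117, 121, 119.9 and 116 TPM in cortex to 151, 188, 170.1 and 195 TPM in cerebellum, with a log2 fold change of 0.47 (SE 0.06, edgeR adjusted p = 1.3e-04).

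*St6galnac5* and *St6galnac6* encode sialyltransferases that act on the GalNAc residue and give the alpha-series. *St6galnac5* (ENSMUSG00000039037) lies on chromosome 3 from 152480045 to 152645210, minus strand, with 1.80% of its exon bases shared with *Pigk* on the opposite strand. It had 48.1, 43.7, 47.8 and 46.5 TPM in wild-type cortex and 3.17, 2.91, 3.43 and 3.72 TPM in wild-type cerebellum, the last from 118 to 141 counts per library. Cortex was higher in every mouse by more than 10-fold, with a log2 fold change of -3.97 (SE 0.08, edgeR adjusted p = 1.6e-11). In A391T mice the level was 47.0, 47.6, 53.4 and 52.4 TPM in cortex and 3.16, 2.5, 3.77 and 3.81 TPM in cerebellum, with a log2 fold change of -4.02 (SE 0.13, edgeR adjusted p = 4.3e-09).

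*St6galnac6* (ENSMUSG00000026811) lies on chromosome 2 from 32455229 to 32476326, plus strand, and differed little between the regions. Wild-type cortex had 125, 117, 117 and 113 TPM and wild-type cerebellum 108, 108, 108 and 109.6 TPM. The ranges lay close without overlap, and the log2 fold change was -0.28 (SE 0.05, edgeR adjusted p = 7.4e-04). In A391T mice it was -0.31 (SE 0.06, edgeR adjusted p = 9.9e-04), from 123 to 126 TPM in cortex and 105 to 111 TPM in cerebellum. With library totals the values were -0.16 in wild-type and -0.18 in A391T mice, and both still passed the adjusted p-value. In these bulk samples a smaller share of the cells that use a gene and less of its RNA in each cell cannot be told apart.

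**Figure D2:**
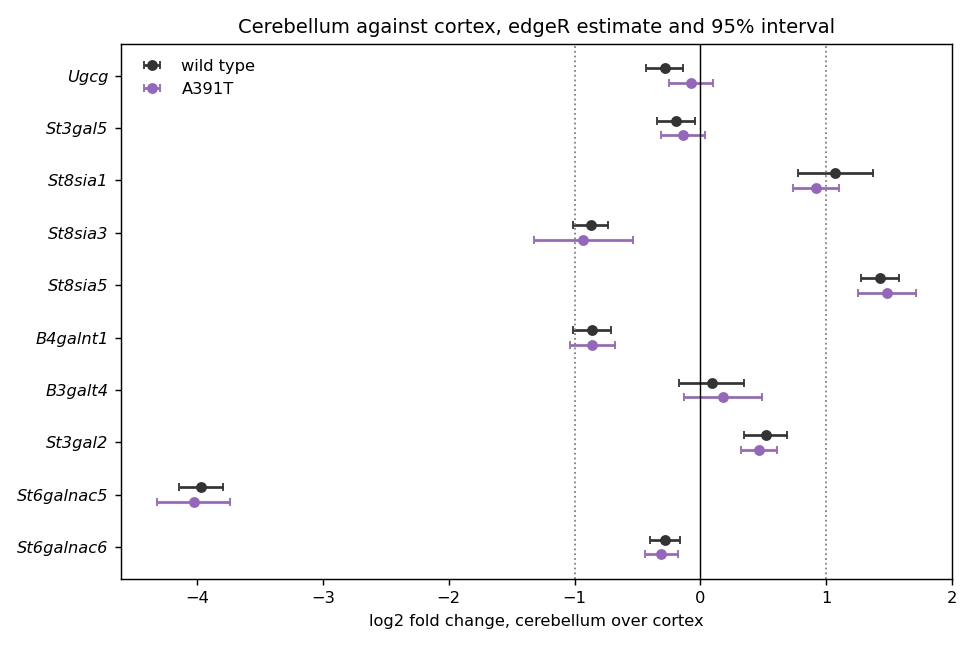
Log2 fold change of cerebellum over cortex for each of the 10 genes (horizontal axis), with the edgeR estimate as a point and its 95% interval as a bar, in wild-type mice and in A391T mice, and dotted lines at a 2-fold change. *St6galnac5* stands at -3.97 and -4.02, *St8sia5* at 1.43 and 1.48, and the intervals of the genotypes overlap for every gene.

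In A391T mice 2 of the 10 genes, *St8sia5* and *St6galnac5*, passed both criteria between the regions, 1 higher and 1 lower in cerebellum, where 24.7% of 16005 genes tested did, 9.8% higher and 14.9% lower. Past the adjusted p-value alone were 7 of 10, 3 higher and 4 lower, against 62.8% of all genes tested, 31.6% higher and 31.3% lower. Without cerebellum of mouse 1 *Ugcg*, at -0.15, and *St3gal5*, at -0.21, passed it as well. The ranges of the regions did not overlap for 7 of 10 genes in each genotype, where 63.7% of the genes with at least 1 TPM had ranges apart in wild-type mice and 59.6% in A391T mice. By the other naming it was 7 of 10 against 62.4% in wild-type mice and, with *B3galt4*, 8 of 10 against 60.5% in A391T mice.

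The order of levels changed between the regions. In wild-type cortex it was *St3gal5*, *B4galnt1*, *St6galnac6*, *St3gal2*, *St8sia5*, *St8sia3*, *Ugcg*, *St6galnac5*, *B3galt4* and *St8sia1*, with overlapping ranges between *St6galnac6* and *St3gal2*, between *St8sia5* and *St8sia3*, and between *B3galt4* and *St8sia1*. In wild-type cerebellum *St8sia5* was first, at 239.9 ± 9.32 TPM (SD, n = 4), followed by *St3gal5*, *St3gal2*, *St6galnac6*, *B4galnt1*, *Ugcg*, *St8sia3*, *St8sia1*, *B3galt4* and *St6galnac5*. Only *Ugcg* and *St8sia3* had overlapping ranges as neighbours in that order. In A391T cortex the order was that of wild-type cortex but for *B3galt4* and *St8sia1*, whose ranges overlapped, as did those of *St8sia5* with *St8sia3* and *Ugcg* with *St6galnac5*. In A391T cerebellum the order was that of wild-type cerebellum, and there the overlapping neighbours were *St8sia5* with *St3gal5* and *St8sia3* with *St8sia1*. Reads on exon bases shared with another gene were left out, chiefly for *B4galnt1*, *St8sia5* and *St8sia3*. This can lower their TPM in these orders and in the shares and TPM ratios below.

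The sum of the 10 levels was 883 ± 44.2 TPM in wild-type cortex and 979 ± 16.9 TPM in wild-type cerebellum (SD, n = 4). The 3 *St8sia* genes made up 18.9 ± 0.914% of it in cortex and 32.2 ± 0.754% in cerebellum. Within the 3, *St8sia5* alone held 48.0 ± 0.842% in cortex and 76.0 ± 1.22% in cerebellum. The pair of *St6galnac* genes made up 18.7 ± 0.81% of the sum in cortex and 11.4 ± 0.252% in cerebellum. The A391T libraries gave 17.6 ± 0.684% and 30.3 ± 4.04% for the *St8sia* genes, with the widest spread in cerebellum, where mouse 1 was the lowest at 24.3%. These shares are descriptions of the same levels and have no test of their own.

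Pairs of genes were compared within a library as the ratio of their RNA levels, which needs no scaling between libraries. The comparison ran over the 8 mice with both regions of a mouse as a pair. The 4 ratios were written down with results of these data known, and *B4galnt1* and *St8sia1* each enter 2 of them. Their p-values therefore restate the region differences given above and add no support to them, and the adjustment over 4 ratios does not cover the choice. The ratio of *St8sia1*, the entry to the b-series, to *B4galnt1*, which lengthens the chain, was 0.0863 ± 0.0161 in wild-type cortex and 0.332 ± 0.00721 in wild-type cerebellum (TPM over TPM, SD, n = 4). It was higher in cerebellum in 8 of 8 mice, by a mean of 1.87 on the log2 scale (SD 0.28), or 3.66-fold, with an exact two-sided sign-flip p of 0.0078, the smallest that 8 mice can give, and 0.0104 after adjustment over 4 ratios.

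The ratio of *B3galt4* to *B4galnt1*, the later over the earlier step of chain growth, was 0.0881 ± 0.0151 in wild-type cortex and 0.169 ± 0.0142 in wild-type cerebellum. The mean difference over 8 mice was 1.00 on the log2 scale (SD 0.30), higher in cerebellum in 8 of 8, with an exact sign-flip p of 0.0078 and an adjusted p of 0.0104. The ratio of *St6galnac5* to *St6galnac6* was 0.394 ± 0.0182 in wild-type cortex and 0.0305 ± 0.00299 in wild-type cerebellum. It was lower in cerebellum in 8 of 8 mice, with a mean difference of -3.71 on the log2 scale (SD 0.18), or 13.1-fold, and the same exact and adjusted p-values.

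The ratio of *St8sia5* to *St8sia1*, the second over the first sialic acid extension, moved least. It was 6.00, 5.23, 6.05 and 7.89 in wild-type cortex of mice 1 to 4 and 8.18, 8.48, 7.12 and 7.51 in cerebellum of the same mice. Mouse 4 was the only one of the 8 in which it was lower in cerebellum. The mean difference was 0.44 on the log2 scale (SD 0.28), or 1.36-fold, higher in 7 of 8 mice, with an exact sign-flip p of 0.0156, which was also the value after adjustment. Among wild-type mice alone it was 0.33, and 4 mice cannot give an exact p below 0.125 for any of the ratios.

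**Figure D3:**
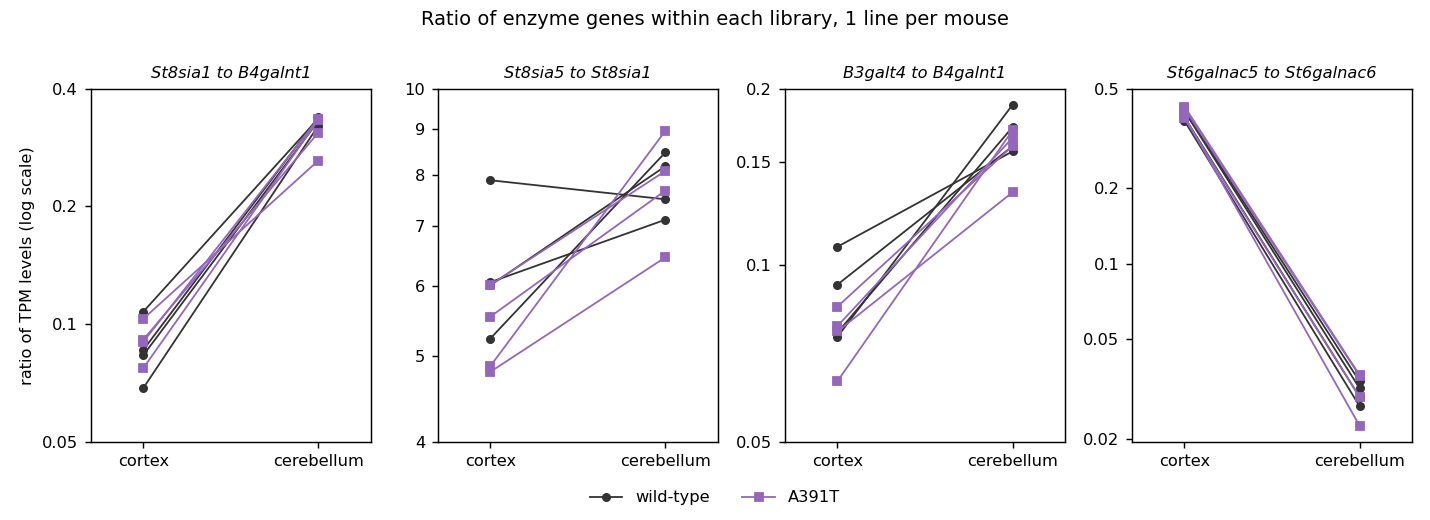
Ratio of TPM levels of 4 pairs of genes within each library (vertical axes, log scale), with 1 line per mouse from cortex to cerebellum, circles for wild-type and squares for A391T mice. All 8 lines rise for *St8sia1* to *B4galnt1* and for *B3galt4* to *B4galnt1*, all 8 fall for *St6galnac5* to *St6galnac6*, and 7 of 8 rise for *St8sia5* to *St8sia1*.

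The second question of the design is whether the A391T mutation, in a transporter of manganese, moved these genes within a region. No gene of the 10 passed the adjusted p-value in cortex, where 0.0126% of 15815 genes tested did, and none in cerebellum, where 0.0% of 15668 did. At an unadjusted p under 0.05 there was 1 of 10 in each region, against 4.73% and 8.55% of all genes tested. DESeq2 and the edgeR exact test also called 0 of 10 in both regions, and over all genes they called 14 and 13 in cortex and 30 and 17 in cerebellum. The ranges of the genotypes overlapped for all 10 genes in both regions, where 3.26% of genes had ranges apart in cortex and 7.76% in cerebellum. By the other naming, that of the RPKM table, ranges were apart for 1 of 10 in each region, against 2.96% and 6.74% of genes. In cortex it was *St3gal5*, from 204 to 219 TPM in wild-type and from 220.1 to 231 TPM in A391T mice. In cerebellum it was *St6galnac5*, from 3.43 to 3.81 TPM in wild-type and from 2.5 to 3.17 TPM in A391T mice. Neither passed the adjusted p-value there (edgeR adjusted p = 0.88 and 0.55).

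The log2 fold changes of A391T over wild type ran from -0.17 to 0.09 in cortex and from -0.14 to 0.20 in cerebellum. Their 95% intervals stayed between -0.48 and 0.37 in cortex and between -0.51 and 0.39 in cerebellum, short of a 2-fold change on either side. Under the names of the RPKM table the fold changes ran from -0.11 to 0.27 in cortex and from -0.26 to 0.16 in cerebellum, and *St8sia1*, the highest in cortex, was at 0.27 (SE 0.11, edgeR adjusted p = 0.88) against 0.07 under the names of the count files. With only the mice whose names match it was 0.35 (SE 0.19). The widest in cortex was that of *B3galt4*, -0.48 to 0.13, and the widest in cerebellum that of *St8sia3*, -0.51 to 0.23. The value of *St8sia3* in cerebellum, -0.14 with cerebellum of A391T mouse 1, was 0.02 without it.

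*St8sia5* had the smallest unadjusted p in cortex, with a log2 fold change of -0.14 (SE 0.06, edgeR adjusted p = 1.00). Its level was 80.3 ± 6.92 TPM in wild-type and 73.8 ± 1.13 TPM in A391T mice (SD, n = 4). Wild-type mouse 4, at 72.4 TPM, lay among the A391T values. *Ugcg* had the smallest in cerebellum, with a log2 fold change of 0.20 (SE 0.08, edgeR adjusted p = 0.53). Without cerebellum of A391T mouse 1 it was 0.12 (SE 0.05). Its level there, with all libraries, was 48.7 ± 3.13 TPM in wild-type and 53.8 ± 2.64 TPM in A391T mice. Wild-type mouse 3, at 53.3 TPM, lay above 3 of the 4 A391T mice. Under the names of the RPKM table the values were 0.0036 for *St8sia5* in cortex and 0.06 for *Ugcg* in cerebellum.

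**Figure D4:**
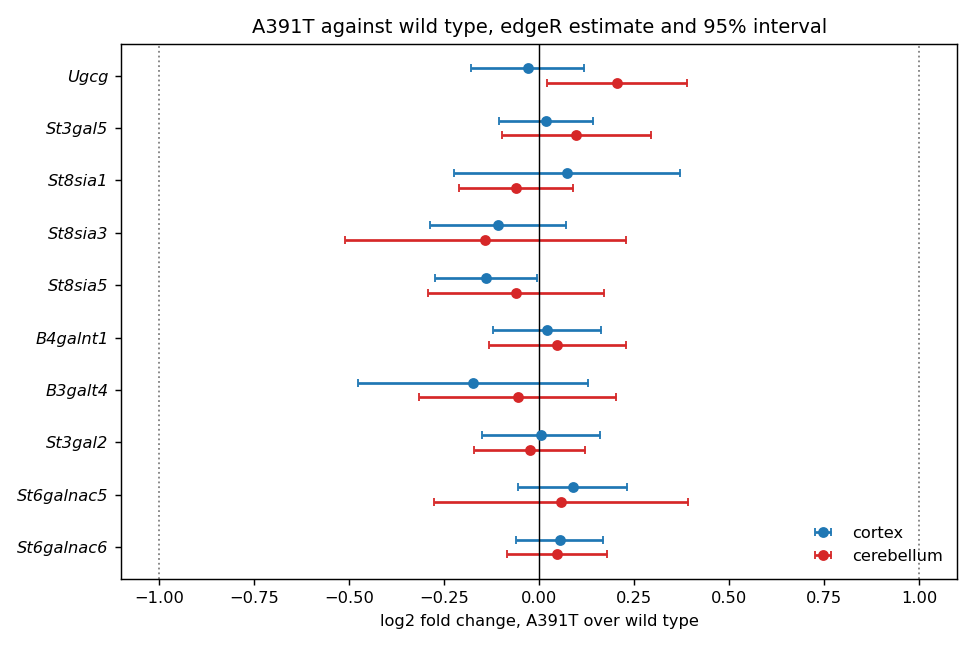
Log2 fold change of A391T over wild type for each of the 10 genes (horizontal axis) in cortex and in cerebellum, with the edgeR estimate as a point, its 95% interval as a bar and dotted lines at a 2-fold change. All 20 intervals lie between -0.51 and 0.39, and 18 of them include 0.

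Whether the region difference itself depends on genotype was tested as an interaction over all 16 libraries. No gene of the 10 passed the adjusted p-value, where 0.0% of 16589 genes tested did, none had an unadjusted p under 0.05 against 4.85% of all genes, and DESeq2 called 0 of 10 and 1 of all genes. The interaction estimate of *Ugcg* was 0.22 on the log2 scale (95% interval -0.0038 to 0.45, edgeR adjusted p = 0.77) against 0.04 under the names of the RPKM table. That of *St8sia1* was -0.14 (95% interval -0.50 to 0.22). It was -0.0088 without cortex of wild-type mouse 4, -0.27 without cortex of wild-type mouse 2, -0.38 (SE 0.14, edgeR adjusted p = 0.50) under the names of the RPKM table and -0.53 (SE 0.25) with only the mice whose names match. For *St6galnac5* it was -0.04 (95% interval -0.36 to 0.27), with -0.10 without cerebellum of A391T mouse 4, 0.079 without that of A391T mouse 2 and -0.16 under the names of the RPKM table. For *St8sia5* it was 0.07 (95% interval -0.19 to 0.33), with 0.0063 without cerebellum of A391T mouse 4 and 0.16 without that of A391T mouse 1. *St8sia1* passed a 2-fold change in wild-type mice and not in A391T mice, but under neither naming did its interaction pass the adjusted p-value.

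The steps around the pathway were read from 5 lists of 46 further genes, of which 44 had enough counts for the region test. Among 7 genes for lactosylceramide synthesis and for other sialyltransferases, 6 passed the adjusted p-value in wild-type mice, 4 higher and 2 lower in cerebellum, where 67.8% of all genes did, 34.7% higher and 33.1% lower, with a median log2 fold change of 0.25 against 0.02 over all genes. Past both criteria were 2 of 7 against 24.7% of all genes, *St6galnac4*, a further GalNAc sialyltransferase, at 1.52 (SE 0.05), from 32.3 to 103 TPM, and *St3gal1*, which sialylates galactose mainly on glycoproteins, at -1.72 (SE 0.13), from 19.6 to 6.63 TPM. The adjusted p-values were 9.1e-10 and 4.1e-07 (edgeR).

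Among 15 genes of ceramide supply 14 were tested, and 5 were higher and 2 lower by the adjusted p-value in wild-type mice, 7 of 14 against 67.8% of all genes, with a median of 0.10. Only *Sptssb*, a small subunit of serine palmitoyltransferase listed in the files by its older name 1110032A04Rik, passed both criteria, 1 of 14 against 24.7% of all genes, at 2.37 (SE 0.11, edgeR adjusted p = 5.0e-09), from 5.66 to 32.4 TPM. Among 5 genes for other uses of ceramide, 2 rose and 1 fell, 3 of 5 against the same 67.8%. Past both criteria were 2 of 5 against 24.7% of all genes. *Cerk*, ceramide kinase, was at 2.09 (SE 0.09, edgeR adjusted p = 3.5e-09), from 45.3 to 214 TPM, and *Sgms2*, a sphingomyelin synthase, at 1.31 (SE 0.16, edgeR adjusted p = 2.9e-05), from 1.78 to 4.87 TPM. Of 4 sialic acid supply genes tested out of 5, 1 rose and 1 fell by the adjusted p-value, 2 of 4 against 67.8%, and 0 of 4 passed both criteria against 24.7% of all genes.

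Among 14 genes of ganglioside degradation, 2 rose and 5 fell in cerebellum by the adjusted p-value, 7 of 14 against 67.8% of all genes, with a median of -0.06. Past both criteria was 1 of 14 against 24.7% of all genes, *Neu2*, a sialidase, at -2.26 (SE 0.18, edgeR adjusted p = 7.8e-07), from 8.97 to 2.07 TPM. In A391T mice the genes of the 5 lists past both criteria were again these 6 of 44, where 24.7% of all genes passed both, at 1.44 for *St6galnac4*, -2.21 for *St3gal1*, 2.56 for *Sptssb*, 2.09 for *Cerk*, 1.01 for *Sgms2* and -2.08 for *Neu2*. None of the 44 genes tested passed the adjusted p-value between genotypes in either region or in the interaction (edgeR).

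**Figure D5:**
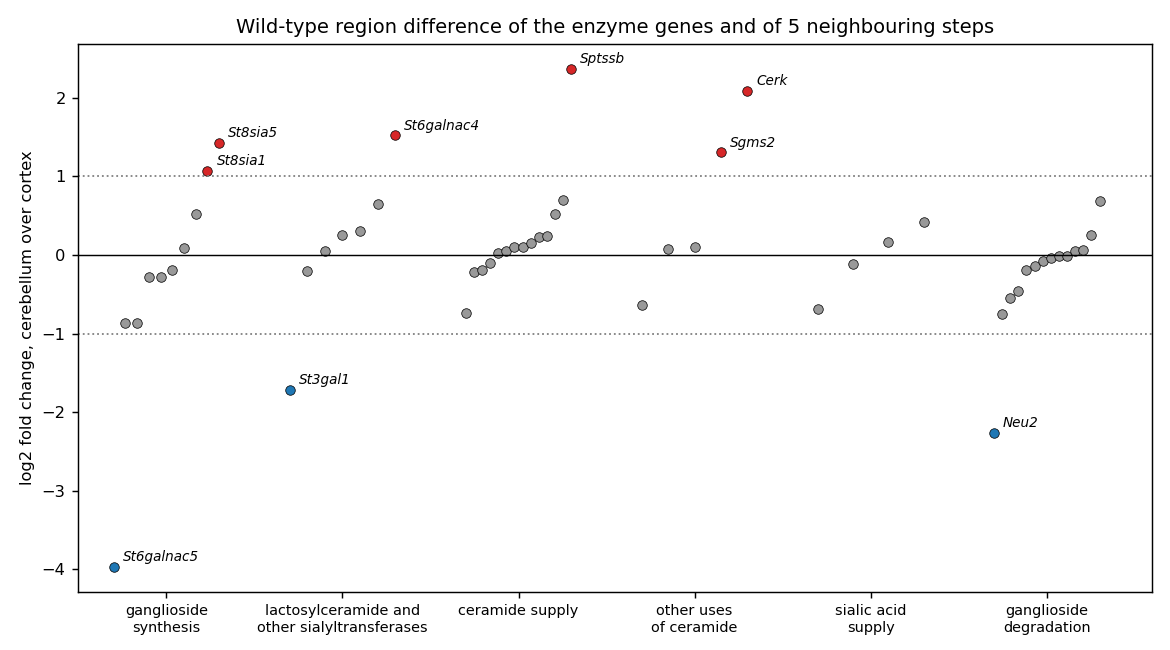
Log2 fold change of cerebellum over cortex in wild-type mice (vertical axis) for the 10 ganglioside synthesis genes and the tested genes of 5 neighbouring lists, ordered by value within a list, with dotted lines at a 2-fold change. Colours and names mark the genes past both criteria, red for higher and blue for lower in cerebellum, among which *St6galnac5* at -3.97 lies lowest and *Sptssb* at 2.37 highest.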

How the data were processed

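Libraries of cortex and cerebellum of the same mice were polyA-selected and made with a directional kit. Per the labels and the study's methods, the authors aligned reads to mm9 using STAR. Their HTSeq runs then gave the deposited counts, raw whole numbers for each Ensembl gene and library, with the strand of the reads ignored. A table of RPKM values and gene lengths was deposited as well. It gave gene names and lengths here, and its 16 columns were matched to the count files within 1e-06. The columns of wild-type mice 1 and 2 and of A391T mice 3 and 4 carry each other's values in both regions. Reads on no single gene were left out, from 21.4% to 27.1% of the entries of a file.

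Genes that passed filterByExpr were TMM-normalized and tested with edgeR's quasi-likelihood test (version 4.0.16, limma 3.58.1, R 4.3.3), and p-values were adjusted by Benjamini-Hochberg across every gene tested. Standard errors were derived from that test, as the size of the log2 fold change over the square root of its F statistic. The 95% intervals are from these standard errors and a t quantile. DESeq2 1.42.0 and the other settings were alternatives. Ratios were tested with exact two-sided sign-flip tests over mice (Python 3.11.15, numpy 2.4.6, pandas 2.3.3). TPM was computed from counts and gene length. Replicates are separate mice. Same-numbered libraries of a genotype are 1 animal per the labels, with correlations of their deviations across genes from -0.23 to 0.26, against -0.32 to 0.29 for different mice, so the pairing rests on the labels alone. The SDs between mice include counting error, which is largest for *B3galt4* and for *St6galnac5* in cerebellum, with 97 to 196 counts per library.

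The 10 genes and the 5 lists were chosen with earlier results of these data known. Of each list, up to 4 genes per direction past both criteria in wild-type mice are named, and any past the adjusted p-value between genotypes. List genes were matched by symbol, 7 of 46 by an older name, and *Glb1*, which has 2 entries, by the first. A further gene of the lists is not reported here. Gene positions and exon overlaps were read from the Ensembl gene models of the NCBIM37 build.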

Additional observations from a re-analysis of the deposited data

Results flagged for a closer look

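Among the 40 groups of 4 libraries, 1 for each gene in each region and genotype, 5 held a library that lay apart from the other 3, with a gap to its nearest neighbour that, as a part of the group's whole range, passed Dixon's 95% critical value. Chance flags about 1 in 20 such groups. In 2 of the 5 the library was cerebellum of A391T mouse 1, with *St8sia3* at 23.0 TPM, below the 44.1 to 45.9 TPM of the other mice, and *Ugcg* at 57.7 TPM, above the next highest, 52.7 TPM. Cerebellum of wild-type mouse 3 had *Ugcg* at 53.3 TPM, above the next highest, 47.5 TPM. Cortex of A391T mouse 3 had *B3galt4* at 9.43 TPM, below the next lowest, 12.5 TPM. The striatal marker sum of that library was 107 TPM, against 326 to 451 TPM in the other A391T cortex libraries, and its part in the value was not tested. Cerebellum of wild-type mouse 4 had *St6galnac6* at 109.6 TPM, above the next highest, 107.8 TPM, a gap of under 2 TPM in a group with an SD of 0.963 TPM.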

How the results depend on the processing

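Counts of the 10 genes past both criteria were 3 in wild-type and 2 in A391T mice, and from 2 to 3 in each when a library was left out. By the adjusted p-value alone they were 9 and 7, and 6 and 6 with only the mice whose names match, where *St6galnac6* lost its call in both genotypes (edgeR adjusted p = 0.071 and 0.15), as did *Ugcg* and *St3gal5* in wild-type mice. Tested against a 2-fold change they were 2 and 2, without *St8sia1*. The counts under the alternatives stand without the share of all genes and show only which calls of the 10 genes changed. With both genotypes together *St8sia1* was at 1.00, and with only the mice whose names match, 2 per genotype, *St8sia3* in A391T mice was at -1.21. The genotype and interaction counts were 0 under every alternative run. With mouse as a replicate block the counts were 3 and 2 with no call of the 10 genes changed. They were 3 and 3 under the RPKM table's names with the block, chosen after seeing the data. There *Ugcg* in wild-type mice no longer passed the adjusted p-value, and *B3galt4* in A391T mice lost the call it had under those names without the block. Of 1000 fold changes recomputed for the 10 genes, 949 kept direction and call, by both criteria between regions and by the adjusted p-value between genotypes, 2 lost and 6 gained one, and 43 changed sign. Of 120 recomputed levels 56 moved by more than 1 SD, CPM included. Library totals raised the share of calls higher in cerebellum from 51.2% to 60.6% in wild-type and from 50.2% to 60.9% in A391T mice, and turned *Ugcg* in A391T mice to 0.053.

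In wild-type mice alone the log2 ratio differences were 1.96 for *St8sia1* to *B4galnt1*, 0.33 for *St8sia5* to *St8sia1*, 0.95 for *B3galt4* to *B4galnt1* and -3.69 for *St6galnac5* to *St6galnac6*, and in A391T mice alone 1.78, 0.55, 1.05 and -3.73. An exact test of 4 mice cannot pass 0.05. With no replicate block the exact permutation p was 1.6e-04 for 3 ratios and 0.0012 for *St8sia5* to *St8sia1*. Leaving out 1 mouse gave 1.82 to 1.95, 0.38 to 0.51, 0.94 to 1.06 and -3.73 to -3.65.

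Sign changes were otherwise of small differences, none of them called. Under the RPKM table's names, A391T over wild type in cortex was 0.00080 for *Ugcg*, 0.039 for *St8sia3*, 0.0036 for *St8sia5* and -0.11 for *St6galnac5*, in cerebellum 0.16 for *B3galt4* and -0.26 for *St6galnac5*, and the interaction -0.011 for *B4galnt1*, -0.032 for *St8sia5* and 0.060 for *St6galnac6*. With only the mice whose names match, *B3galt4* was -0.11 between regions in wild-type mice, *St6galnac5* -0.022 between genotypes in cortex and -0.21 in cerebellum, *B3galt4* 0.097 in cerebellum, and the interaction of *St6galnac6* 0.039. With 1 library left out, the range between genotypes in cortex was -0.075 to 0.023 for *Ugcg*, -0.011 to 0.051 for *St3gal5*, -0.023 to 0.050 for *B4galnt1*, -0.056 to 0.19 for *St8sia1* and -0.065 to 0.037 for *St3gal2*. In cerebellum it was -0.026 to 0.079 for *B4galnt1*, -0.21 to 0.020 for *St8sia3*, -0.12 to 0.026 for *St8sia5*, -0.14 to 0.012 for *B3galt4*, -0.064 to 0.0036 for *St3gal2* and -0.0077 to 0.18 for *St6galnac5*. For the interaction it was -0.0048 to 0.12 for *St3gal5*, -0.051 to 0.068 for *B4galnt1*, -0.11 to 0.12 for *St8sia3*, -0.080 to 0.036 for *St3gal2*, -0.10 to 0.079 for *St6galnac5* and -0.056 to 0.0062 for *St6galnac6*. The cause of these moves was not tested.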
